A study of Arabidopsis thaliana with 8 samples.

Results

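Inflorescence RNA of plants carrying an insertion at each of 2 transcription factor genes, in the heterozygous state (HET), was compared with that of the line T14, which has a T-DNA insertion at 1 of them. Both genotypes were hybridised to Affymetrix ATH1 arrays of *Arabidopsis thaliana*, 2 arrays each, so 4 of the 8 arrays of the series enter the difference itself. It was examined across the 22746 probe sets that are not Affymetrix controls, of 22810 in all. HET is heterozygous for an insertion at AT1G69690 (TCP15) and for one at AT3G47620 (TCP14), and T14 has a T-DNA in AT1G69690, with a zygosity that the labels do not give. T13, a line with a T-DNA in AT3G47620, and the control CON, for which the labels name no insertion, had 2 arrays each and are given beside the difference. All 4 groups were of the accession Ws, came from greenhouse plants in compost (18 °C, 16 h light) at growth stage 6.0, with 10 plants pooled. A repeat is named in the title of HET replicate 2, and it is not stated whether both arrays of a group had their own pool of plants. The p-values therefore describe array-to-array spread, which may be technical, and with 1 line per gene, insertion and line background cannot be told apart.

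TCP14 and TCP15 belong to the class I branch of the TCP family, plant transcription factors that act with much overlap on growth and cell division in young organs. T-DNA, which Agrobacterium moves into plant chromosomes, is widely used to interrupt genes. Inflorescences hold flowers of many stages, and their RNA includes that of the anthers. There the tapetum, the inner cell layer of the anther wall, feeds the young pollen and makes the outer wall and coat of the grain before it breaks down. Mature grains are filled with transcripts for the later growth of the pollen tube, among them enzymes that modify pectin, the main polysaccharide of the tube wall. In whole inflorescences, fewer cells of a type and less RNA per cell cannot be told apart.

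Intensities are on a linear scale and were already scaled by the authors. Rank correlations between arrays were 0.966 within HET and 0.948 within T14, against 0.938 to 0.952 over the 4 pairs of a HET and a T14 array. HET replicate 1 stood apart in several, but not all, RNA control probe sets. Its GAPDH signal from 5' probes, divided by that from 3' probes, was 0.345, against 0.127 on HET replicate 2, 0.0969 and 0.0718 on the T14 arrays and 0.0639 to 0.129 over the 7 other arrays. Its 25S rRNA control read 199, against 687 to 3320 on those 7. For actin the same ratio was 0.0732 with 1 pair of control probe sets, within the 0.0695 to 0.119 of those 7. With another actin pair it was 0.267, against 0.0741 to 0.152. Counts below are therefore also given without this array and with the GAPDH ratio as a covariate. The part that RNA quality plays in the differences was not tested.

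In HET inflorescences 16 of 31 kept genes listed for pollen fell below T14 and 4 of 12 listed for the tapetum and pollen coat rose above it, while most of the called probe sets lay outside every list or had no gene name. All lists were written with earlier results of these data known, so their counts are descriptions. In a limma fit over 15045 probe sets kept by a filter on low values, 146 passed an adjusted p of 0.05 in HET against T14, which is 0.97% of those tested. Of these, 110 were lower in HET (0.731%), with log2 differences from -2.75 to -1.04 and a median of -1.85. The other 36 were higher in HET (0.239%), with log2 differences from 1.11 to 3.35 and a median of 1.68. Over all kept probe sets the median was -0.03. The log2 differences were taken after 16 was added to each intensity, so they understate the change of dim genes. For 62 of the 110 lower probe sets both HET arrays lay under the 40th percentile of their array, while this was so of the T14 arrays for 0 of the 110. A single gene was named for 64 of the lower and 17 of the higher probe sets, while 5 and 1 read several genes and 41 and 18 have no gene name here. In the same fit 1476 probe sets had an unadjusted p under 0.05, which is 9.81% of those tested. Without HET replicate 1 the adjusted count was 58 (0.386%), of which 49 were lower and 9 higher. With the GAPDH ratio as a covariate 0 passed in limma and 460 had an unadjusted p under 0.05, while all 146 kept their direction with a median size of 1.6 and a median SE of 0.367, against 1.81 and 0.251 without the covariate.

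**Figure D1:**
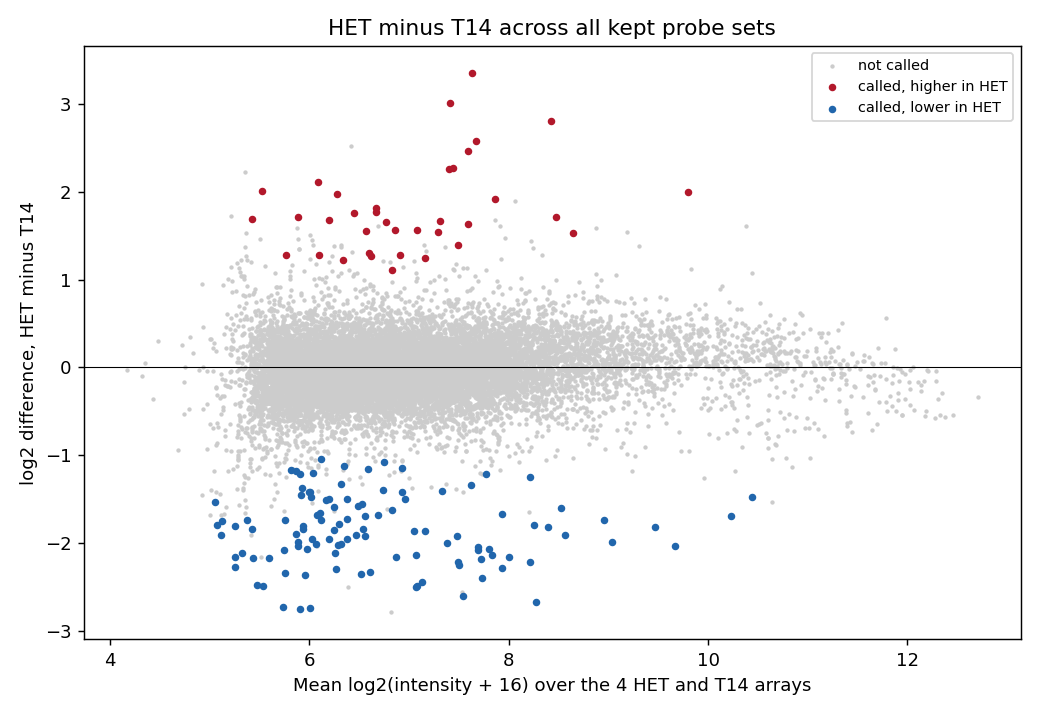
Each point is 1 of 15045 kept probe sets, with its mean log2(intensity + 16) over the 4 HET and T14 arrays on the x axis and the log2 difference of HET minus T14 on the y axis. Red points are the 36 called higher in HET and blue points the 110 called lower (limma, adjusted p under 0.05), and the calls lower in HET lie at low as well as high intensities.

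TCP15, the gene with the insertion in T14, was examined first. Its intensity was 188 and 222 in HET and 86.0 and 68.8 in T14, beside 206 and 204 in T13 and 198 and 244 in CON. Both T14 arrays lay below the 6 other arrays, and HET overlapped with CON. The difference of HET from T14 was 1.24 on the log2 scale (SE 0.2, limma adjusted p = 0.01). HET against CON gave -0.10 (limma adjusted p = 0.994) and T14 against CON -1.34 (limma adjusted p = 0.0606). The call for HET against T14 was lost without T14 replicate 2 (1.111), HET replicate 1 (1.354) or HET replicate 2 (1.135), with limma adjusted p from 0.0597 to 0.098. Where the insertion lies with respect to the probes is not stated, and a heterozygous insertion need not lower the level of its gene. TCP14 had no named probe set, so it was not analysed here and the arrays do not check that part of the HET genotype.

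Genes of pectin-modifying enzymes and of the pectinesterase inhibitor family were among those lower in HET. Of 30 such genes known from pollen, written down with earlier results of these data known, 18 had a named probe set and all 18 passed the filter. In HET 11 of them fell below T14 and 0 rose (limma), where 0.731% of all kept probe sets fell. These 18 had a median log2 difference of -1.79 (all kept probe sets, -0.03), and the HET arrays lay below the T14 arrays for all 18, as for 22.3% of all kept probe sets. The summed intensity of the 18 was 863 and 934 on the HET arrays, against 3135 and 4549 on the T14 arrays.

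Pectinesterases remove methyl groups from pectin. The pectinesterase AT3G17060 read 10.6 and 7.3 in HET and 145 and 156 in T14, beside 7.2 and 26.7 in T13 and 141 and 156 in CON. For this gene T14 was thus at the level of CON and HET at that of T13. The difference of HET from T14 was -2.74 (SE 0.276, limma adjusted p = 0.000698). Its T13 level was not typical. Of the 10 pectin genes plotted by array, 9 had both T13 arrays between the HET and the T14 arrays, unlike AT3G17060. AT5G07420 read 3.7 and 2.2 in HET, against 84.2 and 94.6 in T14 (log2 -2.47, limma adjusted p = 0.00533). Its neighbour in name, AT5G07430, averaged 67.8 ± 11.0 in HET and 387 ± 114 in T14 (SD, n = 2 each; log2 -2.24, limma adjusted p = 0.000698). A further pectinesterase, AT3G05610, which stood outside the list, averaged 27.6 ± 2.62 in HET and 207 ± 59.8 in T14 (SD, n = 2 each; log2 -2.33, limma adjusted p = 0.000554). AT2G26450 fell by 1.78 on the log2 scale (limma adjusted p = 0.00399).

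Polygalacturonases and pectate lyases cut the pectin chain. The polygalacturonase AT5G48140 read 55.6 and 63.3 in HET, against 349 and 562 in T14, and 117 on each T13 array. Its log2 difference of HET from T14 was -2.61 (SE 0.235, limma adjusted p = 0.000546). AT3G07820, of the same enzyme class, read 107 and 103 in HET and 389 and 710 in T14 (log2 -2.16, limma adjusted p = 0.00121). The 4 pectate lyases AT59 (log2 -1.84), AT2G02720 (-2.02), AT3G01270 (-1.80) and AT5G15110 (-1.66) fell as well (limma adjusted p from 0.00082 to 0.00678). The last of them read 22.7 and 22.8 in HET, against 90.8 and 124 in T14. AT1G10770, of the family of pectinesterase inhibitors, read 115 and 74.1 in HET and 381 and 509 in T14 (log2 -2.07, limma adjusted p = 0.000903).

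**Figure D2:**
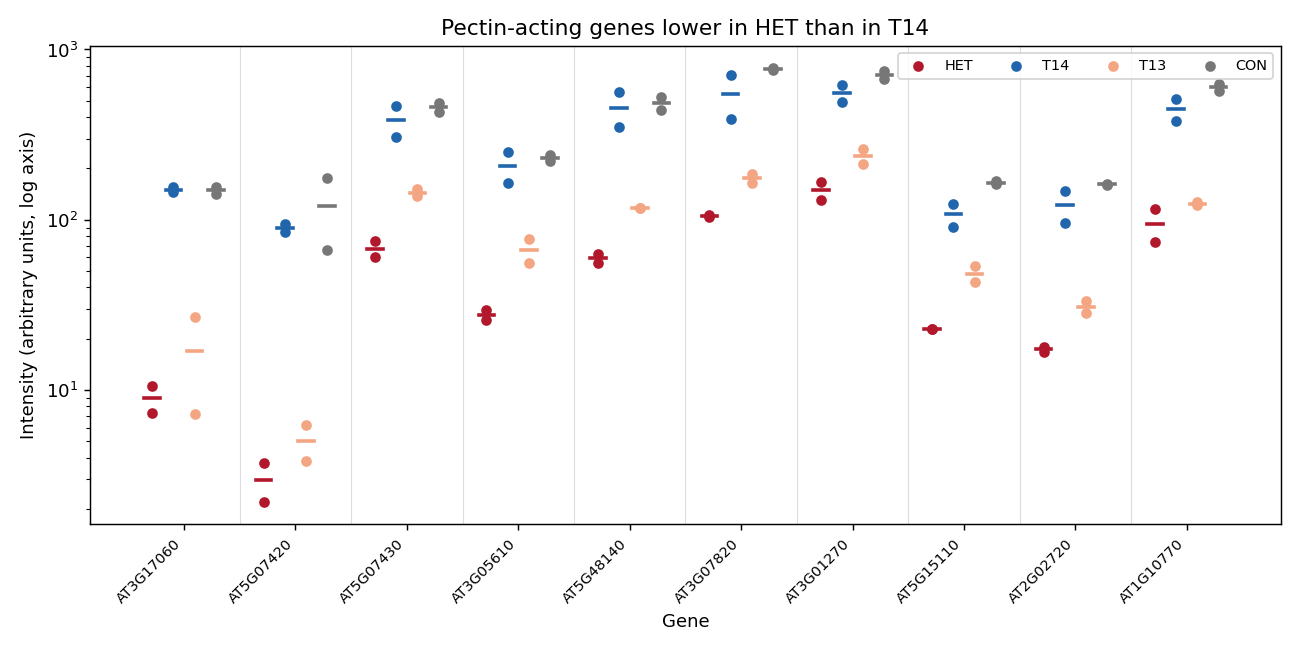
Intensity on a log axis of 10 genes of pectin enzymes or the pectinesterase inhibitor family. There is 1 point per array and a bar at the mean of the 2 arrays of each group, in the order HET, T14, T13 and CON. The genes were picked from those called lower in HET than in T14 (limma), and pectin genes of the list that did not pass are not shown. For every gene shown both HET points lie below both T14 points, which follows from that choice.

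The 7 pectin genes of the list that did not pass had log2 differences from -1.58 to -0.41. AT5G49180 read 207 and 235 in HET, against 332 and 460 in T14, and 242 and 287 in CON. Its HET arrays lay below its CON arrays as well, yet its T14 arrays lay above them, unlike those of the genes described above. Without HET replicate 1, the call was lost for AT5G07420 (log2 -2.53), AT2G26450 (-1.86) and AT59 (-1.79), and without T14 replicate 2 for AT5G07420 (-2.404) and AT59 (-1.437). That of AT5G07420 was also lost with the filter at the 60th percentile.

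Receptors and signals of the pollen tube were also listed with earlier results of these data known. They had few named probe sets, 6 of 30 genes, of which 4 passed the filter. Of these 2 fell in HET and 0 rose (limma), where 0.731% of all kept probe sets fell. The protein kinase AT3G20530 read 10.5 and 5.8 in HET, against 83.3 and 132 in T14 (log2 -2.34, SE 0.297, limma adjusted p = 0.00184). AT4G39110, a receptor-like kinase, read 6.6 and 24.5 in HET and 79.9 and 115 in T14 (log2 -1.89, limma adjusted p = 0.00669), a call that was lost without HET replicate 1 (-1.471), T14 replicate 2 (-1.664) or the filter, and with the GAPDH covariate (-1.185). ANX2, a receptor-like kinase that keeps growing pollen tubes from bursting, read 4.3 and 9.6 in HET and 38.9 and 67.0 in T14, a log2 difference of -1.57 that did not pass (limma adjusted p = 0.0554). It did pass without T13 replicate 1, without T13 replicate 2 and with a variance prior that has no trend. RALFL26 and RALFL25, of a family of small secreted peptides that includes ligands of such kinases, stood outside the list and the naming rule. Both are given here after their values were seen, so they add no support to the list. RALFL26 read 28.4 and 36.7 in HET and 135 and 208 in T14 (log2 -1.92, limma adjusted p = 0.000947). RALFL25 read 13.2 and 20.2 in HET and 79.6 and 125 in T14 (log2 -1.84, limma adjusted p = 0.00202).

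Of 27 genes for the pollen wall, cytoskeleton and transport, 7 had a named probe set, 6 passed the filter and 3 fell in HET, again beside 0.731% of all kept probe sets. This list too was written with earlier results of these data known. AT2G15880, a leucine-rich repeat extensin of the cell wall, read 6.3 and 7.4 in HET, against 76.6 and 98.5 in T14 (log2 -2.17, SE 0.265, limma adjusted p = 0.00139). Another gene of that family, AT3G19020, read 3.7 and 31.8 in HET and 109 and 117 in T14 (log2 -2.07, limma adjusted p = 0.0173), and lost its call without HET replicate 1 (-1.431), T14 replicate 1 (-2.112), T14 replicate 2 (-2.027) or the filter, with a pseudocount of 1 (-3.197) and with the GAPDH covariate (-0.912). EXPB5, a beta-expansin that loosens walls, read 47.2 and 52.5 in HET, against 139 and 177 in T14 (log2 -1.40, SE 0.189, limma adjusted p = 0.00284), and missed the threshold without HET replicate 1 (-1.34). PLIM2a, a LIM protein that bundles actin filaments, stood outside the list and the naming rule and is given after its values were seen. It read 38.8 and 60.4 in HET and 174 and 194 in T14 (log2 -1.63, limma adjusted p = 0.00403). ACT11, an actin of reproductive organs, read 271 and 433 in HET and 443 and 163 in T14, so its groups overlapped (log2 0.33, limma adjusted p = 0.823).

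Among transcription factors and gamete genes of pollen no member passed in limma. Of 18, 9 had a named probe set and 3 passed the filter, AGL18, AGL65 and AGL66, with log2 differences of -0.61, -0.19 and -0.38 (limma adjusted p from 0.406 to 0.863). The other 6 read at most 36.0 on any array. Over the 4 pollen lists, 16 of the 31 kept members fell and 0 rose, beside 0.731% of all kept probe sets that fell. Without HET replicate 1 there were 10, where 0.386% of all kept probe sets were called in either direction. With the GAPDH ratio as a covariate there were 0, as over all kept probe sets, with a negative difference for 29 of the 31 and a median of -1.19, against -1.58 without the covariate.

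Beyond the lists, the largest falls by the naming rule were those of AT1G04470 (log2 -2.75), AT1G54070 (-2.72), AT5G39880 (-2.50), AT3G26110 (-2.49), AT1G19500 (-2.49), AT3G62710 (-2.39), AT5G50830 (-2.35), AT4G27580 (-2.29) and AT3G28750 (-2.21), with limma adjusted p from 0.000546 to 0.00184. These sizes and their order depend on the pseudocount, since several HET values are near 0. With a pseudocount of 1 the differences of AT1G04470, AT1G54070 and AT1G19500 were -4.517, -4.5 and -4.379, and that of AT5G39880 was -2.878. AT1G54070 read 7.0 and 2.6 in HET, against 99.1 and 146 in T14, and 42.8 and 69.1 in T13. AT3G28750, the brightest of them, averaged 124 ± 30.1 in HET and 634 ± 153 in T14 (SD, n = 2 each). Of 26 named genes called lower in HET, 20 were called under every alternative but the GAPDH covariate.

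Genes of the tapetum, listed with earlier results of these data known, stood the other way round. Of 27 genes for tapetum enzymes and the synthesis of exine, the outer pollen wall, 8 had a named probe set and all 8 passed the filter. In HET 4 of them rose above T14 and 0 fell (limma), where 0.239% of all kept probe sets rose. All 8 had a positive difference, with a median of 1.68, and the HET arrays lay above the T14 arrays for 7 of them, as for 16.9% of all kept probe sets. ATA27, a beta-glucosidase of the tapetum, read 569 and 408 in HET and 62.9 and 71.9 in T14, beside 232 and 220 in T13 and 207 and 210 in CON. HET was thus above CON and T14 below it, and the difference of HET from T14 was 2.58 (SE 0.208, limma adjusted p = 0.000285). Its own difference from CON was 1.15 in HET (limma adjusted p = 0.0187) and -1.43 in T14 (limma adjusted p = 0.0606).

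AT5G07230, known as A9 and a long-used marker of the tapetum, read 502 and 268 in HET and 30.5 and 119 in T14, beside 243 and 263 in T13 and 156 and 193 in CON (log2 2.28, SE 0.416, limma adjusted p = 0.0227). SHT, which attaches hydroxycinnamic acids to spermidine in the tapetum for the pollen coat, read 146 and 90.0 in HET and 19.4 and 31.4 in T14 (log2 1.68, SE 0.294, limma adjusted p = 0.0173). AT1G33430, a glycosyltransferase family gene needed for exine, read 675 and 583 in HET, against 121 and 265 in T14 (log2 1.72, limma adjusted p = 0.026). These 3 calls were lost without the filter, without HET replicate 1 (log2 1.842, 1.372 and 1.611) and without T14 replicate 1 (1.506, 1.465 and 1.195), that of AT1G33430 also without HET replicate 2 (1.819), that of AT5G07230 with scanner background as a covariate (2.276) and that of SHT with the filter at the 60th percentile (1.676), while ATA27 passed in all 19 alternatives but the GAPDH covariate. Of the tapetum genes that did not pass, AT5G62080 read 518 and 308 in HET and 60.8 and 205 in T14 (log2 1.68, limma adjusted p = 0.154). AT1G66850, which like AT5G62080 is of the lipid transfer protein family, read 1034 and 985 in HET and 429 and 330 in T14 (log2 1.38, limma adjusted p = 0.0937). AT5G62080 passed without T14 replicate 2 (2.438), and AT1G66850 without either CON array.

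AMS, a transcription factor that tapetum development needs, read 39.0 and 44.9 in HET, against 22.7 and 29.9 in T14, a difference that did not pass (log2 0.46, limma adjusted p = 0.605). Of 8 tapetum regulators it was the only member kept. Of 12 pollen coat proteins 3 were kept, with log2 differences from 0.35 to 1.45, and 0 passed in limma (adjusted p from 0.15 to 0.83). Over the 3 lists of tapetum and pollen coat genes, 4 of 12 kept members rose and 0 fell, beside 0.239% of all kept probe sets that rose. The count was 1 without HET replicate 1, without T14 replicate 1 or without the filter, and 0 with the GAPDH covariate, under which the median of the 12 was 1.53, against 1.42.

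**Figure D3:**
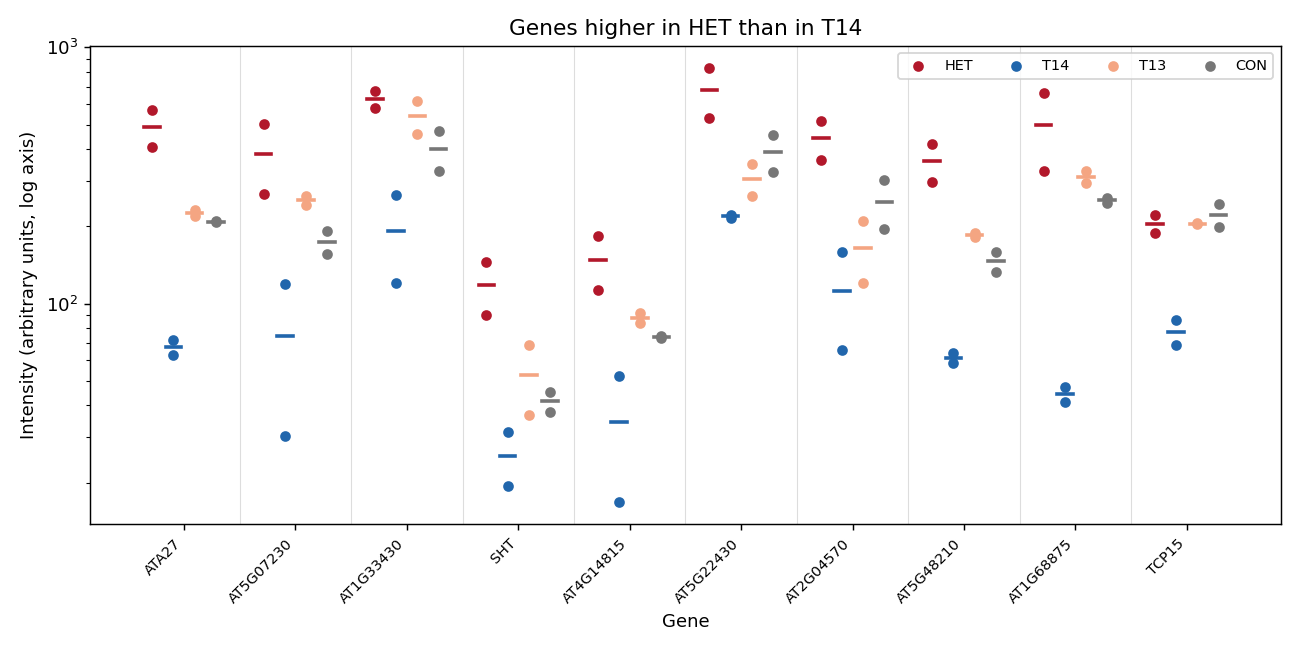
Intensity on a log axis of 10 genes higher in HET than in T14, with 1 point per array and a bar at the group mean, in the order HET, T14, T13 and CON. Besides TCP15, the genes were picked from the largest rises named by the rule. HET lies above CON and T14 below CON for all genes shown except TCP15, for which HET overlaps with CON. Of the largest rises not shown, AT3G05500 (181 and 103 in HET, 116 and 161 in CON) and AT1G20120 (215 and 135, 143 and 106) had HET overlapping with CON as well.

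Other genes that rose in HET included AT1G68875, which read 664 and 328 in HET and 47.3 and 41.4 in T14, beside 328 and 296 in T13 and 247 and 259 in CON (log2 3.00, SE 0.277, limma adjusted p = 0.000546). AT5G48210 read 420 and 298 in HET, against 63.9 and 58.6 in T14 (log2 2.26, SE 0.21, limma adjusted p = 0.000546). AT5G16920 averaged 146 ± 4.1 in HET and 39.4 ± 1.56 in T14 (SD, n = 2 each; log2 1.55, limma adjusted p = 0.000947). These 3 and ATA27 were the only 4 of the named rises that passed without HET replicate 1. The remaining rises named by the rule were AT3G05500 (log2 1.97), AT2G04570 of the GDSL lipase family (1.91), AT4G14815 of the lipid transfer protein family (1.76), AT1G02813 (1.67), AT1G30020 (1.57), AT5G22430 (1.53), AT1G20120 of the GDSL lipase family (1.28) and AT5G13380 of the GH3 family (1.27). Their limma adjusted p ran from 0.0122 to 0.0304. Each was lost without HET replicate 1, at log2 1.605, 1.668, 1.448, 1.422, 1.332, 1.213, 0.973 and 1.159 in that order. Each was also lost without the filter and without T14 replicate 1 or T14 replicate 2, at log2 0.969 to 1.555, and AT2G04570 and AT5G13380 without HET replicate 2 as well, at 2.158 and 1.372. With scanner background as a covariate AT2G04570 (1.912) and AT1G20120 (1.278) were lost, and AT2G04570 also with quantile normalization (1.872). AT2G04570 passed in 12 of the 19 alternatives. AT2G03850 also rose (log2 1.22, limma adjusted p = 0.0134) and is given here after its values were seen, as the only named rise that the rule left out.

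Setting both lines against CON showed which of them departed from it. HET and T14 share the same CON arrays in these comparisons, and the probe sets were chosen by their difference, so the counts are descriptions. Of the 110 probe sets lower in HET than in T14, 106 fell in HET relative to CON too (limma), where 1.02% of all kept probe sets were, and 0 were called in T14 against CON, where 0.0199% were. The median log2 difference from CON was -2.07 in HET and -0.23 in T14. Median group intensities over the 110 were 29.9 in HET, 146 in T14, 56.0 in T13 and 163 in CON. Of the 36 probe sets higher in HET than in T14, 33 had both HET arrays above and both T14 arrays below both CON arrays, as had 1.57% of all kept probe sets. Their median log2 difference from CON was 0.81 in HET and -0.91 in T14, 4 were called higher in HET than in CON (0.0465% of all kept probe sets), and 1 was called lower in T14 than in CON. For most of the 36, then, the departure of either line from CON did not pass on its own.

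The comparison of T13 with CON uses no HET or T14 array in its group means, although all 8 arrays share the estimate of the spread. Of the 110 probe sets lower in HET than in T14, 108 had a negative difference in T13 against CON, as had 42.7% of all kept probe sets. Their median was -1.51, against 0.05, and 74 were called lower in T13 (limma), where 0.585% of all kept probe sets were. Between HET and T13 themselves 0 probe sets passed in limma, and 1491 (9.91%) had an unadjusted p under 0.05. Of the 110, 109 were lower in HET than in T13, as were 57.6% of all kept probe sets. The median log2 difference of HET from T13 over the 110 was -0.61, against -0.06. The T13 mean lay between the HET and T14 means for 108 of the 110. These probe sets were chosen for low values in HET relative to T14, so these counts are descriptions. Of the 36 probe sets higher in HET than in T14, 27 had a positive difference in T13 against CON, with a median of 0.22, and 0 were called in limma.

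**Figure D4:**
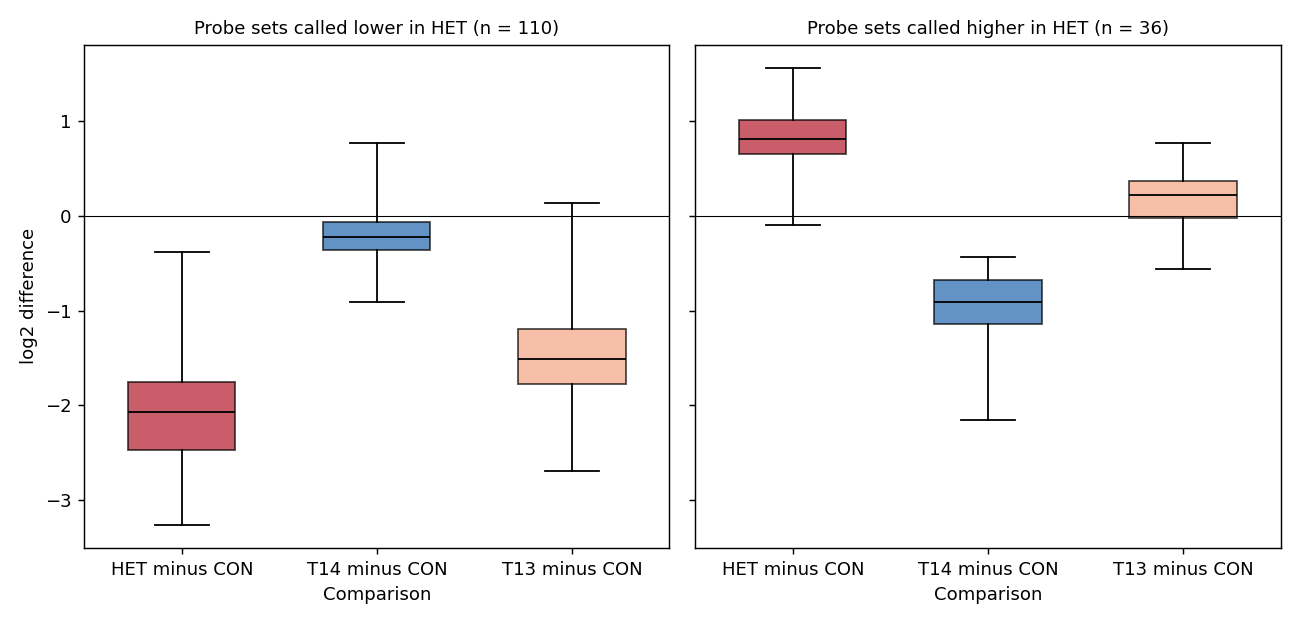
Log2 differences from CON in HET, T14 and T13 for the 110 probe sets called lower (left) and the 36 called higher (right) in HET than in T14. Boxes span the quartiles, lines inside them are medians and whiskers reach the lowest and highest values. On the left the medians are -2.07 in HET, -0.23 in T14 and -1.51 in T13, and on the right 0.81, -0.91 and 0.22.

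In the 10 remaining lists 26 members were kept, of which TCP15 alone passed, where 0.97% of all kept probe sets did. A count this small gives no result about these groups. The cell division genes AUR1, AUR2, AUR3 and PRL had log2 differences from -0.14 to 0.13, the cytokinin response regulators ARR15 and RR16 of 0.01 and 0.21, and the gibberellin receptor GID1A of 0.19 (limma adjusted p from 0.807 to 0.997). AUR1, a kinase of dividing cells, read 155 and 134 in HET and 148 and 172 in T14. The ovule gene INO and the gynoecium gene SPT had differences of -0.04 and 0.13, and RCA, which activates the carbon-fixing enzyme of green tissue, 0.14. For AUR2, AUR3, ARR15, GID1A, INO, SPT and RCA the sign turned in at least 1 alternative.

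Larger differences that did not pass were those of GH3.3, which conjugates auxin, DFR, an enzyme of anthocyanin synthesis, the expansin EXPA4 and AT1G12010, an ACC oxidase of ethylene synthesis. GH3.3 read 40.9 and 26.5 in HET and 204 and 71.7 in T14 (log2 -1.499, limma adjusted p = 0.15). DFR read 32 and 44.8 in HET and 157 and 69.3 in T14 (log2 -1.17, limma adjusted p = 0.116). Both passed without T14 replicate 2, at log2 -2.163 and -1.675 (limma adjusted p = 0.0147 and 0.00805). EXPA4 read 312 and 183 in HET and 152 and 66.6 in T14 (log2 1.12, limma adjusted p = 0.217). AT1G12010 read 69.2 and 117 in HET and 50.7 and 8.8 in T14 (log2 1.39, limma adjusted p = 0.243). Both passed without T14 replicate 1, at log2 1.631 and 2.104 (limma adjusted p = 0.0246 and 0.0184). In each of the 4 genes the T14 arrays differed from each other by more than the HET arrays did on the log scale of the fit.

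**Figure D5:**
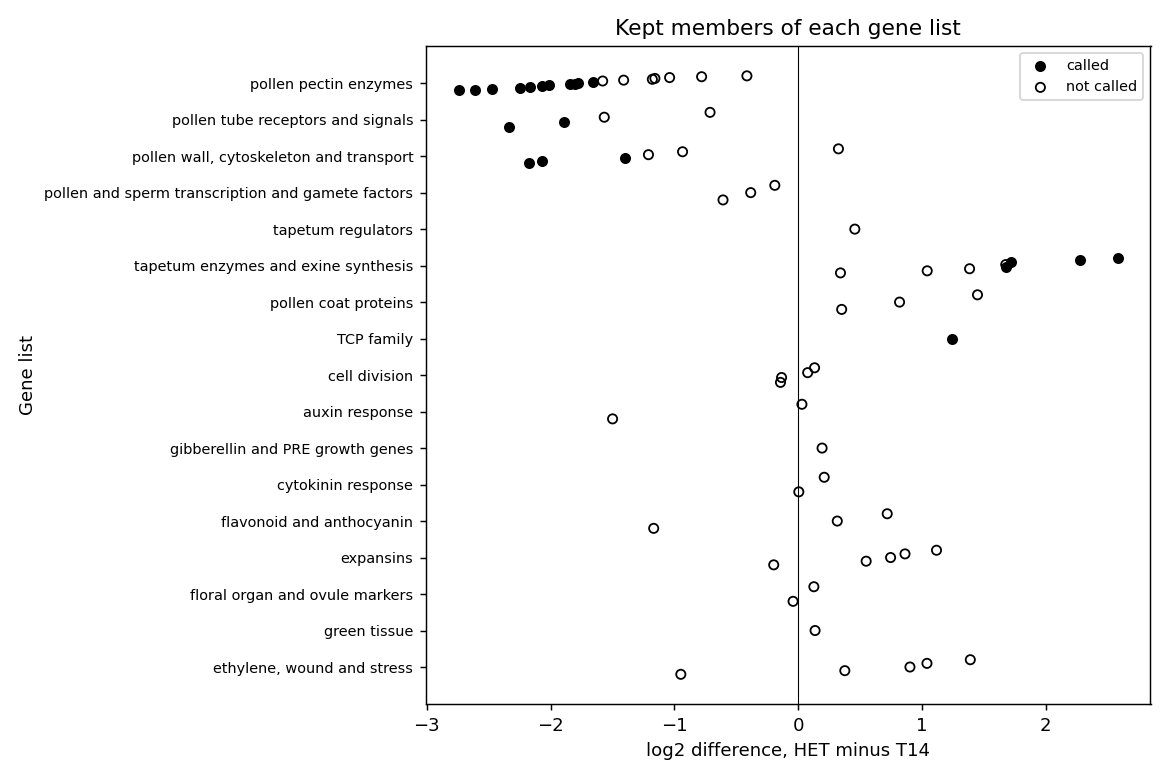
Log2 difference of HET minus T14 for the kept members of each gene list, with 1 point per probe set, filled where it was called (limma, adjusted p under 0.05). Points of the first 3 pollen lists lie left of 0 except ACT11, and those of the tapetum and pollen coat lists all lie right of 0.

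HET and T14 both have an insertion on chromosome 1, and HET a further one on chromosome 3. By locus tag, 7 of the 17 named rises (41.2%) and 13 of the 64 named falls (20.3%) were on chromosome 1, where 26.4% of the tested genes were. Chromosome 3 held 1 of the 17 rises (5.88%) and 20 of the 64 falls (31.2%), against 20.3% of the tested genes. Within 10 annotated genes on either side of AT1G69690, 4 genes were kept, with log2 differences from -0.19 to 0.24, and 0 passed in limma (lowest adjusted p 0.745). Around AT3G47620 11 were kept, with differences from -0.63 to 0.55, and 0 passed (lowest adjusted p 0.416), although 2 of the 11, AT3G47560 and AT3G47590, had an unadjusted p of 0.0449 and 0.024 and are named after their values were seen.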

How the data were processed

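The deposited table holds 1 linear intensity per probe set and array, scaled by the authors so that the mean of each array with 2% trimmed at each end is 100. Which software summarised the probes is not stated, there were no detection calls, and precision is limited by the number of arrays. Genes were named by GEO's platform annotation and brought up to date by Entrez identifier with RefSeq's TAIR10.1 gene table. Of 22810 probe sets 13513 had 1 gene, 503 several and 8794 none, and 13436 matched a locus tag. No coordinates are given because the files name no build.

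Control probe sets were left out, and only those at or above the 40th percentile of their array on at least 2 arrays were tested, which left 15045, of which 8286 had 1 gene. After 16 was added, log2 was taken and limma 3.58.1 in R 4.3.3 (lmFit, eBayes with an intensity trend) was fitted over all 8 arrays, with Benjamini-Hochberg adjustment over all kept probe sets and a threshold of 0.05. The fit had 4 residual degrees of freedom. On data simulated for HET against T14 with 15045 probe sets, it made 13 false calls and found 51 of the 100 altered 2-fold and 99 of the 100 altered 4-fold. Simulated noise was drawn independently for each probe set and array, and no array stood apart as HET replicate 1 did. These counts therefore do not measure false or missed calls on the real arrays. The rule for named genes took TCP14 and TCP15, the 15 largest rises and falls that were called with arrays not overlapping, up to 4 members of each of 17 lists, and the kept pollen and tapetum members. Of 294 list genes 88 were named by a probe set, and 69 passed the filter. The comparison, lists and rule were chosen with earlier results of these data known. Alternatives changed the pseudocount, filter, scaling, variance prior, array weights, arrays fitted and covariates, and left out each array. Figures used matplotlib 3.10.9.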

Additional observations from a re-analysis of the deposited data

Results flagged for a closer look

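The difference of HET from T14 is also the difference between their effects relative to CON, and 146 probe sets passed the test of it. Among the genes taken by the naming rule, 13 had both HET arrays above and both T14 arrays below both CON arrays. The same was so of 1.57% of all kept probe sets. The rule took these genes for their large rise of HET over T14, so the count is a description. Their log2 differences of HET from T14 were 3.00 for AT1G68875, 2.58 for ATA27, 2.28 for AT5G07230, 2.26 for AT5G48210, 1.91 for AT2G04570 and 1.76 for AT4G14815. The others were 1.72 for AT1G33430, 1.68 for SHT, 1.67 for AT1G02813, 1.57 for AT1G30020, 1.55 for AT5G16920, 1.53 for AT5G22430 and 1.27 for AT5G13380. On the GAPDH control probe sets, which were not tested and enter only the fit with their ratio as a covariate, HET replicate 1 stood apart. Its 5' signal was 0.345 of the 3' signal, higher than on either CON array.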

How the results depend on the processing

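No paired analysis was possible because the labels carry no replicate numbers shared between groups. The 146 calls of HET against T14 became 84 without the filter on low values and 0 with the GAPDH ratio as a covariate, and from 58 (without HET replicate 1) to 155 when each array was left out. The alternative without the filter tested 22746 probe sets. With HET replicate 1 left out, 84.5% of the calls were lower, as without the filter, without T14 replicate 2 66.7% were, and with all arrays 75.3%. The 42 named genes that passed became 0 with the GAPDH ratio and from 24 to 42 without each array. All 42 kept their direction in every alternative that tested them. Calls of the pollen lists went to 0 with the GAPDH ratio and ran from 10 to 18 without each array, and those of the tapetum and coat lists were 1 without the filter, 0 with the GAPDH ratio and from 1 to 5 without each array. These list counts under alternatives were chosen after the data were seen. The share of named rises on chromosome 1 was 36.0% at an unadjusted p under 0.001 and 60% without the filter, where it was 3 of 5 genes. Genes that did not pass changed sign with the GAPDH ratio for AGL65 (0.298), AT1G75880 (-0.063), UGT78D2 (-0.392), EXPB3 (-0.156) and RCA (-0.018), with a pseudocount of 1 for ARR15 (-0.008), and for INO with quantile normalization (0.020) or median centring (0.010). Without each array they ran from -0.355 to 1.005 for ACT11, -0.4 to 0.022 for AGL65, -0.294 to 0.978 for SWEET8, -0.356 to 1.058 for AT1G75900, -0.089 to 0.354 for AUR2, -0.069 to 0.222 for AUR3, -0.14 to 0.2 for WES1, -0.014 to 0.4 for GID1A, -0.32 to 0.33 for ARR15, -0.01 to 0.641 for UGT78D2, -0.004 to 0.257 for SPT, -0.297 to 0.214 for INO and -0.108 to 0.381 for RCA. The causes were not tested.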

Other observations

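Transcripts of the plastid genome tended to be lower in HET than in T14, although 0 of 69 kept probe sets passed in limma. At an unadjusted p under 0.05 (limma) there were 35, where 9.81% of all kept probe sets were. The median log2 difference was -0.57 and 67 of 69 were negative, against 53.7% of all kept probe sets. Their median intensity was 891 and 1727 on the HET arrays, against 1799 and 2350 on the T14 arrays, 1857 and 2352 on the T13 arrays and 1479 and 1736 on the CON arrays, so HET replicate 1 was the lowest of the 8. Without that array the median difference was -0.23. With the GAPDH ratio as a covariate it was -0.01, and 1 of the 69 had an unadjusted p under 0.05 (limma). Without HET replicate 2 it was -0.93, and 7 of the 69 passed in limma. The group was chosen after the data were seen.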
